A study of Homo sapiens with 19 samples.

Results

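The genes described are SREBF1, SREBF2, INSIG1, HMGCS1, IDI1, FDFT1, SQLE and FASN: both genes of the sterol regulatory element-binding proteins (SREBPs), a gene that holds these factors back, 4 enzymes of cholesterol synthesis and the fatty acid synthase. They were taken by symbol, not by a rule on any measured value, though earlier results of these data were known. All 8 are among the 11671 genes whose mean RNA level over both libraries reached 1 FPKM (fragments scaled to transcript length and library size). The cells were U2OS, a cell line established from a human osteosarcoma. One group of cells was transfected with an siRNA against EP400 and the other with a mock siRNA directed against GFP, and both were grown in DMEM with serum and harvested 72 hr later. Each condition had 1 RNA-seq library and 1 chromatin immunoprecipitation (ChIP) library each for RNA polymerase II (Pol II), the Mediator subunit MED26 and the histone variants H3.3 and H2AZ. The enhancer-associated histone marks H3K18ac and H3K4me1 were measured after mock siRNA alone, and 3 EP400 immunoprecipitations came as 1 list of peaks with no siRNA named in their titles. EP400 is the ATPase of a chromatin remodelling complex, and the series is about its part in depositing H3.3 as genes are switched on.

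SREBPs are made as membrane proteins of the endoplasmic reticulum. When sterols are scarce, the escort protein SCAP carries them to the Golgi, proteases release the part that enters the nucleus, and genes of sterol and fatty acid synthesis and of lipoprotein uptake are transcribed. When sterols are plentiful, INSIG proteins hold SCAP back, so the RNA of INSIG1, itself an SREBP target, is part of a feedback loop. SREBP-2, from SREBF2, is known mainly for sterol synthesis genes, and SREBP-1, from SREBF1, mainly for fatty acid synthesis genes such as FASN.

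With 1 library per condition, no difference has a replicate check and no test was made. EP400 RNA was 10.04 FPKM after mock siRNA (the authors' limits 0.165 to 19.9) and 2.28 FPKM after EP400 siRNA (0.162 to 4.41), or 22.8% of mock. The median gene had a log2 ratio, after EP400 siRNA over mock with 1 FPKM added to both, of -0.20, and rescaling both libraries to the same sum (TPM) moved it by 0.68 to 0.48. Directions are therefore given with their sign on that scale where it differs. Of 8 markers of the mesenchymal and osteoblast lineage, 7 reached 1 FPKM after mock siRNA and 5 after EP400 siRNA; their sum was 1252 and 1460 FPKM. On deposited FPKM, COL1A1 (376 and 60.8) and SPARC (229 and 179) were lower after EP400 siRNA. VIM (618 and 1132), FN1 (23.4 and 79.7) and ALPL (2.31 and 7.75) were higher, and COL1A2 was near 0 at 0.0114 and 0.00486. The gene sums that TPM makes equal were 616046 FPKM after mock and 360029 FPKM after EP400 siRNA, so SPARC was higher on that scale. The epithelial keratins KRT8 (369 and 115) and KRT18 (519 and 316) were also high, with CDH1 at 0.0472 and 0.179. On TPM, KRT18 was higher after EP400 siRNA, as SPARC was. The 5 epithelial markers summed to 952 and 442 FPKM. The hepatocyte genes ALB and TTR, the adipocyte gene ADIPOQ and the leukocyte gene CD3E were listed at 0 in both libraries. The 6 hepatocyte markers summed to 28.7 and 74.2 FPKM, nearly all of it SERPINA1 (27.8 and 73.9), the 5 adipocyte markers to 0.372 and 0.464 FPKM, and the 4 leukocyte markers to 0.0234 and 0.0776 FPKM. Whether any of these shifts had a part in the results was not tested, and in such bulk libraries fewer cells of a kind and less RNA per cell cannot be told apart.

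After EP400 siRNA both SREBP genes and FASN stood at less RNA, HMGCS1 and SQLE at more, and INSIG1, IDI1 and FDFT1 within 1.55-fold of mock. Of the 8 genes, 3 were lower by 2-fold or more and 1 was higher by as much. Over all genes analysed, 22.9% were lower and 6.11% higher by 2-fold or more. The median log2 ratio of the 8 genes was -0.28 against -0.20 for all genes, and on TPM 0.42 against 0.48, so the 8 genes lay near the median gene on both scales. The spread within the group was wide, from -2.07 (SREBF2) to 1.04 (HMGCS1). The authors' confidence limits, summed over the transcript rows of each gene, overlapped between the 2 libraries for all 8 genes. Such sums are wide where a gene has many rows, so their overlap says little there. For FDFT1 after mock siRNA they were 0 to 321, against 0 to 112 for its row of 2176 nt.

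**Figure D1:**
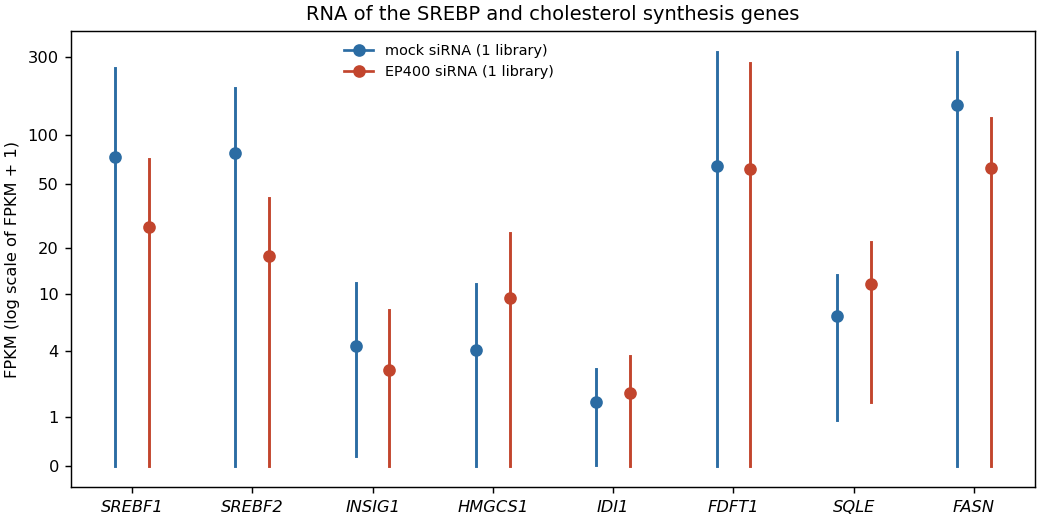
RNA level of the 8 genes in FPKM on a log axis of FPKM + 1, in the mock siRNA library (blue) and the EP400 siRNA library (red). Points are the deposited values summed per gene and vertical lines the authors' lower and upper limits, summed likewise; SREBF1, SREBF2 and FASN show the red point well under the blue one, HMGCS1 and SQLE the reverse, and the lines overlap for each gene.

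SREBF2, the gene of SREBP-2, had the largest difference of the 8 on deposited FPKM, though not on TPM, where HMGCS1 (1.84) did, nor on gene density centring, where SREBF1 (-1.22) did. It stood at 78.0 FPKM after mock siRNA (limits 0 to 195) and at 17.8 FPKM after EP400 siRNA (0.00656 to 41.4), which is 22.8% of mock and a log2 ratio of -2.07. Only 1.95% of all genes analysed had a lower ratio. The longer of its 2 transcript rows, 5786 nt, held little of this (2.53 and 1.04 FPKM), and the row of 5266 nt went from 75.5 to 16.8 FPKM. On TPM the SREBF2 log2 ratio was -1.34. The promoter of SREBF2 is printed because it is the 1 entry among the 8 RefSeq promoter entries for 5 of the genes that holds the sterol regulatory element TCACNCCAC (N is any base), the letters that SREBPs are known to bind. The window covers 250 bases before the RefSeq start and 50 after it, at chr22:41832855-41833154 on the plus strand of GRCh38.p14, 5′ to 3′, with matches in capitals:
SREBF2: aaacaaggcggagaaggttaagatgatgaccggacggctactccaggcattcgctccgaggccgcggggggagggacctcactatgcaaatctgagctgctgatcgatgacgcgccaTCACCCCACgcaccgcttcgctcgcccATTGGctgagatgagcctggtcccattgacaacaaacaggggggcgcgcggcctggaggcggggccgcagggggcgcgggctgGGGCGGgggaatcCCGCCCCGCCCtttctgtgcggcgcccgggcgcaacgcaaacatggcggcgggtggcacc
Both strands were searched, also for the NF-Y box CCAAT, the GC box GGGCGG that SP1 binds, and the E-box CACGTG. In SREBF2 the sterol element lies 133 bases before the start, the NF-Y box 106 bases before it on the other strand, and 3 GC boxes follow, of which the last 2 overlap by 1 base. The sterol element occurs in 1.13% of all 35116 promoter entries of this length, CCAAT in 34.6%, GGGCGG in 45.0% and CACGTG in 7.26%. A match describes letters, not a bound site.

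SREBF1, the gene of SREBP-1, stood at 73.9 FPKM after mock siRNA (limits 0 to 258) and at 27.2 FPKM after EP400 siRNA (0 to 71.8), which is 36.8% of mock and a log2 ratio of -1.41 (-0.66 on TPM). Both of its transcript rows were lower: the row of 4911 nt went from 54.4 to 24.1 FPKM and the row of 5001 nt from 19.5 to 3.13 FPKM. The shorter one thus held 73.6% of the SREBF1 level after mock siRNA and 88.5% after EP400 siRNA. The RefSeq promoter of SREBF1, at chr17:17836937-17837236 on the minus strand of GRCh38.p14, is set beside that of SREBF2 because both genes were lower while their windows differ in the letters searched. It holds 3 GC boxes and no match to the other 3 motifs:
SREBF1: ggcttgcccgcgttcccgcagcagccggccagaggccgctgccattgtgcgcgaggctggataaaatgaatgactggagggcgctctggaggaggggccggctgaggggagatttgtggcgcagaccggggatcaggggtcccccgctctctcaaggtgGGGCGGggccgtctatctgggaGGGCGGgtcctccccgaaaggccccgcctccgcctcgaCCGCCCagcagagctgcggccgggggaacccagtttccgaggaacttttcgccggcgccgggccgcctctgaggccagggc
Each SREBP gene also carries a miR-33 gene, a microRNA known to target the cholesterol exporter ABCA1. The mature sequences from RefSeq are printed with the seed (bases 2 to 8) in capitals, and both share the seed UGCAUUG:
hsa-miR-33b-5p (MIR33B, in the SREBF1 locus): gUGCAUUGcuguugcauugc
hsa-miR-33a-5p (MIR33A, in the SREBF2 locus): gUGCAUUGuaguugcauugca
Their rows in the RNA table, 96 and 69 nt long, were listed at 0 in both libraries, and such short rows are no measure of the mature microRNA.

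INSIG1, which retains the SREBP escort SCAP in the endoplasmic reticulum, was far less abundant than the SREBP genes. It stood at 4.36 FPKM after mock siRNA (limits 0.159 to 12.0) and at 2.81 FPKM after EP400 siRNA (0 to 7.80), or 64.6% of mock. Its log2 ratio of -0.49 became 0.13 on TPM. The INSIG1 ratio was smaller in size than the shift of 0.68 that this scaling makes. The INSIG1 promoter entry, at chr7:155297628-155297927 on the plus strand of GRCh38.p14, is shown because it is the only 1 of the 8 entries with an E-box, 55 bases before the start, next to 1 NF-Y box and 6 GC boxes:
INSIG1: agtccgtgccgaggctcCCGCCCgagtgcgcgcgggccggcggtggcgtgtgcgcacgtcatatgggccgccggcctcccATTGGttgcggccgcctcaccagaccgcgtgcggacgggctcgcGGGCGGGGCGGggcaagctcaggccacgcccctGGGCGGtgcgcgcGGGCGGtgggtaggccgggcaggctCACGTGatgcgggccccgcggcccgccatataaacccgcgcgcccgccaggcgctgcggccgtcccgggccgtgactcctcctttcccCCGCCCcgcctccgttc

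HMGCS1, the synthase that makes HMG-CoA for the mevalonate pathway, was the 1 gene of the 8 at least 2-fold higher. It stood at 4.06 FPKM after mock siRNA (limits 0 to 11.7) and at 9.41 FPKM after EP400 siRNA (0 to 25.0), which is 232% of mock and a log2 ratio of 1.04, or 1.84 on TPM. The difference lay mostly in 1 transcript row: the row of 5450 nt went from 1.21 to 5.60 FPKM and the row of 5391 nt from 2.85 to 3.80 FPKM. The former was therefore 29.9% of the HMGCS1 level after mock siRNA and 59.6% after EP400 siRNA. The limits of both rows overlap, and how fragments were divided between 2 rows of such like length was not tested. The first of 2 HMGCS1 promoter entries, at chr5:43313363-43313662 on the minus strand of GRCh38.p14, is shown because HMGCS1 stood higher while both SREBP genes stood lower. It holds 2 NF-Y boxes, 155 and 100 bases before the start, and 2 GC boxes:
HMGCS1: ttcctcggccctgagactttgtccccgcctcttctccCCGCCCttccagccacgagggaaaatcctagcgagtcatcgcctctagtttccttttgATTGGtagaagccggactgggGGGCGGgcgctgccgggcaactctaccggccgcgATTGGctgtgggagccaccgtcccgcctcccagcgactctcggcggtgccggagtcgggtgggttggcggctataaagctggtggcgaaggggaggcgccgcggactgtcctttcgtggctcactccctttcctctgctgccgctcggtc
TCACNCCAC has no match in this window, which says nothing of binding by an SREBP. The second HMGCS1 entry, whose start lies farther into the gene, held 2 GC boxes and no match to the other 3 motifs. The 3 entries of IDI1 held 0, 2 and 3 NF-Y boxes and no sterol element.

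IDI1, the isomerase that supplies the active isoprene unit, was the lowest of the 8 genes. It stood at 1.46 FPKM after mock siRNA (limits 0.0168 to 2.90) and at 1.76 FPKM after EP400 siRNA (0 to 3.65), a log2 ratio of 0.17 that became -0.17 when centred on genes of the same local gene density. Its level was low, and its difference was small against the limits.

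FASN, the enzyme that builds palmitate, had the highest level of the 8 genes in both libraries. It stood at 153 FPKM after mock siRNA (limits 0 to 323) and at 63.0 FPKM after EP400 siRNA (0 to 128), which is 41.1% of mock and a log2 ratio of -1.27. The ratio was -0.50 on TPM, -0.24 after centring by local gene density and -0.68 after centring by chromosome, which is under 2-fold on each of these 3 scales.

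SQLE, squalene epoxidase, which makes the first oxygenated step of sterol synthesis, stood at 7.18 FPKM after mock siRNA (limits 0.918 to 13.4) and at 11.7 FPKM after EP400 siRNA (1.45 to 22.0), 163% of mock and a log2 ratio of 0.64 (1.41 on TPM). FDFT1, squalene synthase, the step before it, stood at 65.1 FPKM after mock siRNA (0 to 321) and at 62.3 FPKM after EP400 siRNA (0 to 278), 95.6% of mock and a log2 ratio of -0.06 that was above 0 on TPM (0.71), on median centring (0.14) and on gene density centring (0.35). Of these consecutive enzymes, SQLE had a positive log2 ratio on every scale tried, and FDFT1 had no stable sign. Of 11 FDFT1 transcript rows, 2 were listed at 0 in both libraries, and the row of 2176 nt held 83.6% of the FDFT1 level after mock siRNA and 90.3% after EP400 siRNA.

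In order of level after mock siRNA the genes ran FASN, SREBF2, SREBF1, FDFT1, SQLE, INSIG1, HMGCS1 and IDI1. After EP400 siRNA they ran FASN, FDFT1, SREBF1, SREBF2, SQLE, HMGCS1, INSIG1 and IDI1. FPKM is per length, so levels can be set side by side, but limits of every neighbouring pair in either order overlapped.

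The rest of the pathway was read from lists of named genes, with the 8 genes included. Beside the list counts stand the shares of all genes on deposited FPKM, 22.9% lower and 6.11% higher by 2-fold or more. Such shares are not given for TPM, where the median gene itself was at 0.48, so the TPM counts have no background here. Among cholesterol synthesis genes, 19 of 22 listed were analysed, 1 was higher and 6 were lower by 2-fold or more, with a median log2 ratio of -0.22. All 6 at the 2-fold mark were enzymes outside the 8 genes, and the counts were 2 higher and 3 lower on TPM, with a median of 0.44. The mevalonate diphosphate decarboxylase MVD went from 69.6 to 17.1 FPKM (log2 ratio -1.97), mevalonate kinase MVK from 35.1 to 8.42 FPKM (-1.94), and the sterol isomerase EBP from 176 to 46.3 FPKM (-1.90). The last reductase of the pathway, DHCR7, went from 94.3 to 28.5 FPKM (-1.69). The other 2 were PMVK (-1.30) and TM7SF2 (-1.28), named after their values were seen. The highest non-members were HSD17B7 (0.13, but -0.12 on gene density centring) and NSDHL (0.08). LSS, the cyclase after SQLE, had a failed estimate in the mock library and was left out, and GGPS1 and SC5D had a mean under 1 FPKM.

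The list of SREBP control and uptake genes had 18 of 20 analysed, 2 of them higher and 4 lower by 2-fold or more, with a median of 0.05, while TPM gave 8 higher and 1 lower. The escort SCAP was lower, 73.9 to 30.1 FPKM (-1.27), in the direction of SREBF1 and SREBF2. The lysosomal cholesterol exporter NPC1 was higher, 9.29 to 29.5 FPKM (1.57), and its partner NPC2 lower, 350.1 to 185 FPKM (-0.92). The ubiquitin ligase RNF139, which acts on sterol-regulated membrane proteins, was also higher, 2.99 to 7.23 FPKM (1.04), and ERLIN2 stood at 0.62. INSIG2, the other INSIG gene, was 0.974 and 1.30 FPKM (0.22, but -0.09 on gene density centring). MBTPS2 had a mean under 1 FPKM.

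Of fatty acid synthesis genes, 15 of 17 were analysed, 1 of them higher and 4 lower by 2-fold or more (4 and 1 on TPM). Their median was -0.13, but 0.62 on TPM. The fatty acid desaturase FADS2 had the largest difference of any listed gene on deposited FPKM, 214 to 40.5 FPKM (-2.37), but not on TPM (-1.62, against 2.37 for NPC1) or gene density centring (-1.59, against -1.62 for DHCR7), and FADS1 was at -1.05 and the acetyl-CoA synthetase ACSS2 at -1.21. The stearoyl-CoA desaturase SCD, another SREBP-1 target, was near equal at 36.5 and 35.2 FPKM (-0.05, but 0.71 on TPM). Higher were the acyl-CoA synthetase ACSL3, 4.76 to 11.1 FPKM (1.07), ELOVL5 (0.66) and ELOVL6 (0.56). ACACB and GPAM had a mean under 1 FPKM.

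Sterol efflux and storage genes, which hold none of the 8, had 9 of 12 analysed, 2 of them higher and 2 lower by 2-fold or more, with a median of 0.08; TPM gave 3 higher and 0 lower. The cholesterol ester hydrolase NCEH1 went from 0.651 to 3.37 FPKM (1.40), the cholesterol acyltransferase SOAT1 from 1.41 to 4.64 FPKM (1.23), and the lysosomal lipase LIPA stood at 0.42. Lower were LPCAT3 (-1.16), the oxysterol receptor NR1H2 (101 to 49.2 FPKM, -1.03, but 0.00047 on gene density centring) and APOE (-0.90, but 0.04 on that centring). ABCA1, CH25H and CYP27A1 had a mean under 1 FPKM.

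**Figure D2:**
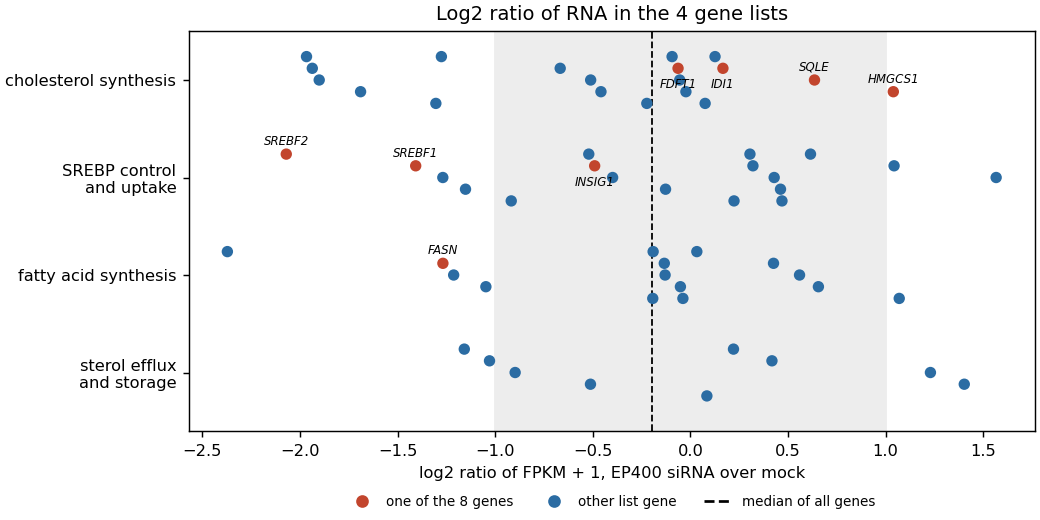
Log2 ratio of RNA (FPKM + 1, EP400 siRNA over mock) on the horizontal axis for each analysed gene of the 4 lists, 1 row of points per list; vertical scatter only separates points. Red points are members of the 8 genes, blue points other genes, the shaded band ratios under 2-fold, and the dashed line the median of all genes at -0.20; the cholesterol synthesis row has 6 blue points left of the band and HMGCS1 at its right edge.

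In the hg19 coordinates of the deposited table, the locus of SREBF1 is on chromosome 17 from 17584787 to 17740325 and also holds RAI1, SMCR5 and 2 microRNA genes. That of SREBF2 is on chromosome 22 from 42229083 to 42303312 with MIR33A, that of INSIG1 on chromosome 7 from 155089486 to 155101945, and that of HMGCS1 on chromosome 5 from 43287572 to 43313614. IDI1 is on chromosome 10 from 1064847 to 1095061, with IDI2 and IDI2-AS1 in the same interval, and FASN on chromosome 17 from 80036214 to 80056106. FDFT1 and SQLE are both on chromosome 8, from 11653082 to 11696818 and from 126010720 to 126034525. The table carries no strand, so the start was put at the end of the interval that the RefSeq promoter table, or for FASN, FDFT1 and SQLE general annotation, gives as 5′.

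Pol II was mapped at the locus of each of the 8 genes in both conditions. A locus is the deposited gene interval with 2 kb on each side, and a gene end is 2 kb around either end of it. At gene ends, 7 of 8 genes had a Pol II peak in both conditions, against 88.0% of all genes after mock siRNA and 82.2% after EP400 siRNA. MED26 lay at an end of 5 and then 6 genes (80.8% and 77.4% of all genes), H2AZ of 4 and then 3 (77.2% and 56.5%), H3K18ac of 6 (74.6%) and H3K4me1 of 3 (31.0%) after mock siRNA. At the starts, H2AZ peaks numbered 2 and 1 at HMGCS1, 2 and 1 at SQLE and 1 and 0 at SREBF2 after mock and EP400 siRNA. SREBF1 had H2AZ at its far end, the RAI1 end of the shared locus, and not at its start. FDFT1 had no Pol II peak at an end, but gene ends do not cover transcripts that start inside a locus. FDFT1 has 11 transcript rows, and the start of each is not given. Its Pol II peak of 1200 bp lay from 6519 to 7718 bp inside the locus after mock siRNA and its peak of 1100 bp from 6619 to 7718 bp after EP400 siRNA, beside MED26, H2AZ and H3K18ac.

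The widest Pol II peak was narrower after EP400 siRNA at all 8 genes, as at 83.9% of the 10402 genes with a Pol II peak in both lists. At FASN, which ranked first in RNA, it covered 7000 bp after mock siRNA, reaching 2905 bp past the start and farther still before it, and 2900 bp around the start after EP400 siRNA. HMGCS1 went from 800 to 300 bp although its RNA was higher, SQLE from 1500 to 1000 bp, INSIG1 from 1800 to 1400 bp, IDI1 from 1300 to 1000 bp, and SREBF2 from 1500 to 1400 bp. The median over the 8 genes was 76.0% of the mock width, and the median over all genes 71.4%. SREBF1 had 2800 bp at its start after mock siRNA and 1200 bp after EP400 siRNA (its widest of 2100 bp then lay at the other end, within RAI1). HMGCS1 and SQLE, whose RNA was higher, thus had narrower Pol II peaks as the genes with less RNA did. The number of Pol II peaks at FASN was larger after EP400 siRNA, 17 covering 7700 bp, than after mock siRNA, 12 covering 11100 bp. Over all 8 loci the numbers were 43 after mock and 35 after EP400 siRNA. The interval that SREBF1 shares with RAI1 held 23 and 11 of them.

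MED26, a subunit of Mediator that recruits elongation factors, was present at the starts of SREBF1, SREBF2, HMGCS1, SQLE and FASN in both conditions, and its widest peak was narrower at 2 genes, wider at 2 and equal at 2 of 6, against 59.3% narrower among all genes. At FASN it was 2000 and 2100 bp and at SREBF1 1100 bp in both, at SREBF2 1000 and 500 bp, and at FDFT1 200 and 500 bp. INSIG1 had a MED26 peak of 100 bp only after EP400 siRNA, and IDI1 had none.

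**Figure D3:**
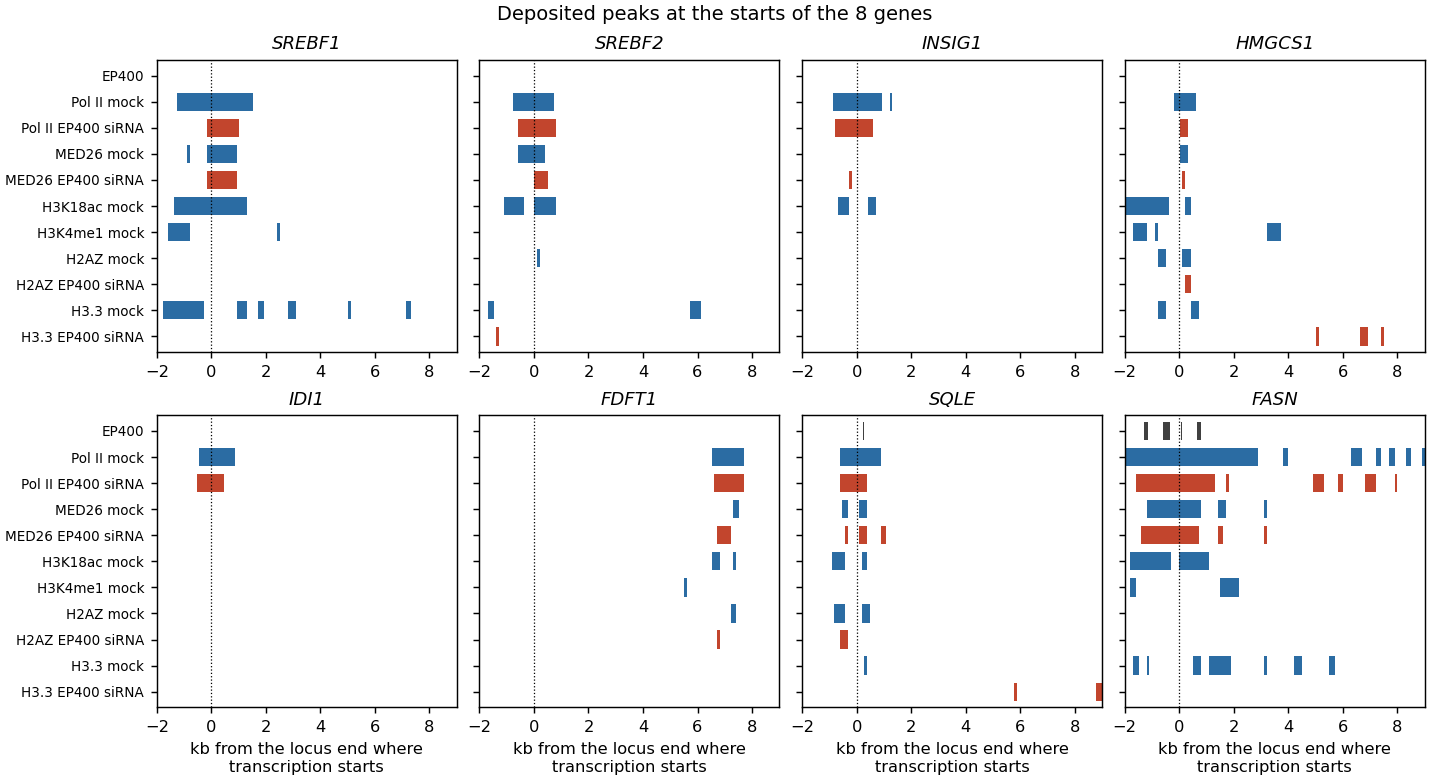
Deposited peaks from 2 kb before to 9 kb after the locus end where transcription starts (0 on the horizontal axis, kb) for each of the 8 genes, 1 row per list, mock siRNA in blue, EP400 siRNA in red and the EP400 list in grey. Pol II lies at this end of 7 loci in both conditions, and 4 EP400 peaks lie around the start of FASN. At FDFT1 Pol II lies about 7 kb inside the locus. The starts of the single FDFT1 transcripts are not given, so a start inside the locus would not be at 0.

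EP400 itself had a peak at an end of 3 of the 8 genes, near the share of 36.0% among all genes. FASN had 4 peaks, all within 2 kb of its start, at 56 to 105 bp and 656 to 805 bp inside the gene and, 250 and 150 bp wide, before it. SQLE had 1 of 50 bp, from 231 to 280 bp inside the gene, where H2AZ, Pol II, MED26 and H3K18ac peaks lay as well after mock siRNA, with an H3.3 peak directly beside it. The 2 peaks at the SREBF1 locus lay at the RAI1 end, at least 154275 bp from the SREBF1 start, and the nearest peak to that start was 3.03 kb before it. The HMGCS1 peak was 11.8 kb inside the gene, and SREBF2, INSIG1, IDI1 and FDFT1 had none at their loci. RNA was lower both at FASN, with EP400 at its start, and at SREBF2, whose nearest EP400 peak was 113 kb away, and higher at SQLE, also with EP400 at its start. Whether EP400 peaks had a part in these RNA differences was not tested.

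H3.3 peaks were fewer at the 3 genes with at least 2-fold less RNA and more numerous at HMGCS1 and SQLE. SREBF1, SREBF2 and FASN together had 93 H3.3 peaks under mock siRNA and 4 under EP400 siRNA. HMGCS1 and SQLE together had 4 and 19. Singly, SREBF1 had 70 and 2 peaks over a locus shared with RAI1, SREBF2 13 and 2, FASN 10 and 0, HMGCS1 2 and 8, SQLE 2 and 11, and FDFT1 1 and 1, while INSIG1 and IDI1 had none in either. Within 25 kb of its own start SREBF1 had 18 and 1 H3.3 peaks, so the difference was not confined to the RAI1 end of the locus. Of the 8 genes, 3 had fewer peaks, against 61.0% of all genes, and 2 had more, against 20.6%. Regions within 1 Mb of the middle of each locus were counted too, after mock and EP400 siRNA. They held 215 and 12 H3.3 peaks around SREBF1, 344 and 46 around SREBF2, and 707 and 52 around FASN. Around FDFT1 there were 54 and 5, around HMGCS1 30 and 29, and around SQLE 127 and 156 (median gene 114 and 36). Whether H3.3 at these loci differed with RNA or with the region was not tested. At gene ends, 6 genes had H3.3 after mock siRNA (70.3% of all genes) and 4 after EP400 siRNA (34.9%). At the start end alone it was 5 genes after mock siRNA and 1, SREBF2, after EP400 siRNA. The SREBF1 end with H3.3 after EP400 siRNA was the RAI1 end. At HMGCS1 and SQLE the peaks after EP400 siRNA lay in the bodies or at the far ends: the 8 at HMGCS1 were 100 to 300 bp wide, none nearer its start than 5014 bp, and the 11 at SQLE began 5781 bp from its start and were 100 to 500 bp wide. Mock H3.3 at the starts of HMGCS1 and SQLE, 2 peaks of 300 bp and 1 of 100 bp, had no counterpart after EP400 siRNA. Only 2 of 98 mock H3.3 peaks at the 8 loci overlapped a peak after EP400 siRNA, against 5.42% of such peaks at all loci. Of H2AZ peaks 3 of 10 overlapped (42.5% at all loci), of Pol II peaks 20 of 43 (54.3%), and of MED26 peaks 13 of 20 (57.8%). Much of this came from the interval that SREBF1 shares with RAI1. It held 70 of the mock H3.3 peaks, 4 of H2AZ, 23 of Pol II and 12 of MED26. Of these, 18, 0, 9 and 5 lay within 25 kb of the SREBF1 start. Both overlapping H3.3 peaks lay in that interval. H3.3 retention was lower than that of the other 3 antibodies at these loci and at all loci alike.

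**Figure D4:**
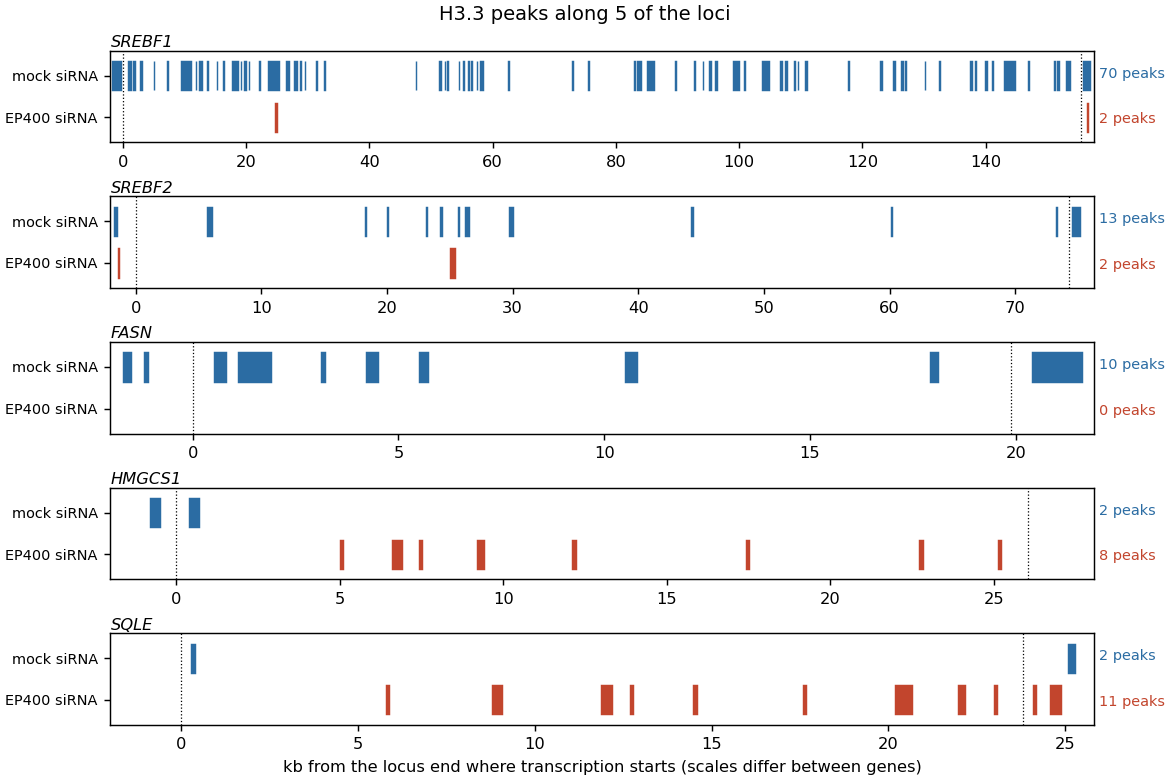
H3.3 peaks along the loci of SREBF1, SREBF2, FASN, HMGCS1 and SQLE in kb from the locus end where transcription starts (dotted lines mark both ends), after mock siRNA (blue) and EP400 siRNA (red), with the number of peaks at the right. SREBF1, SREBF2 and FASN show 70, 13 and 10 blue peaks against 2, 2 and 0 red ones, and HMGCS1 and SQLE 2 blue peaks each against 8 and 11 red ones.

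RNA and H3.3 differed with gene density over all genes, and the 8 genes are set beside that. For each gene the loci within 500 kb of its middle were counted as its local gene density, and all genes were split into 10 classes of about equal size by it. The median log2 ratio of RNA was 0.32 in the sparsest class and -1.03 in the densest, and the number of H3.3 peaks after EP400 siRNA over mock was 1.40 and 0.155. SREBF2 (29 loci, class 9) and FASN (41, class 10), both lower, lay in dense regions, and IDI1 (7, class 2), SQLE (8, class 3), INSIG1 (8, class 3) and HMGCS1 (10, class 4) in sparse ones. SREBF1, with 14 loci, lay in class 6, where the median was -0.19, and FDFT1, with 18, in class 7. After centring on genes of the same class, SREBF2 (-1.13) and SREBF1 (-1.22) were still more than 2-fold lower, FASN (-0.24) was not, HMGCS1 fell short of 2-fold at 0.80, and SQLE was at 0.40. Centring by chromosome left SREBF2 (-1.18) more than 2-fold lower and SREBF1 (-0.82) and FASN (-0.68) under 2-fold, with HMGCS1 at 0.83 and SQLE at 0.47. By chromosome, the number of H3.3 peaks after EP400 siRNA over mock was 0.222 on chromosome 22 and 0.372 on chromosome 17, which carry the 3 lower genes. It was 0.532 on chromosome 7 (INSIG1), 0.720 on chromosome 5 (HMGCS1), 0.734 on chromosome 10 (IDI1) and 0.779 on chromosome 8 (SQLE and FDFT1). The part of gene density in these differences was not tested.

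**Figure D5:**
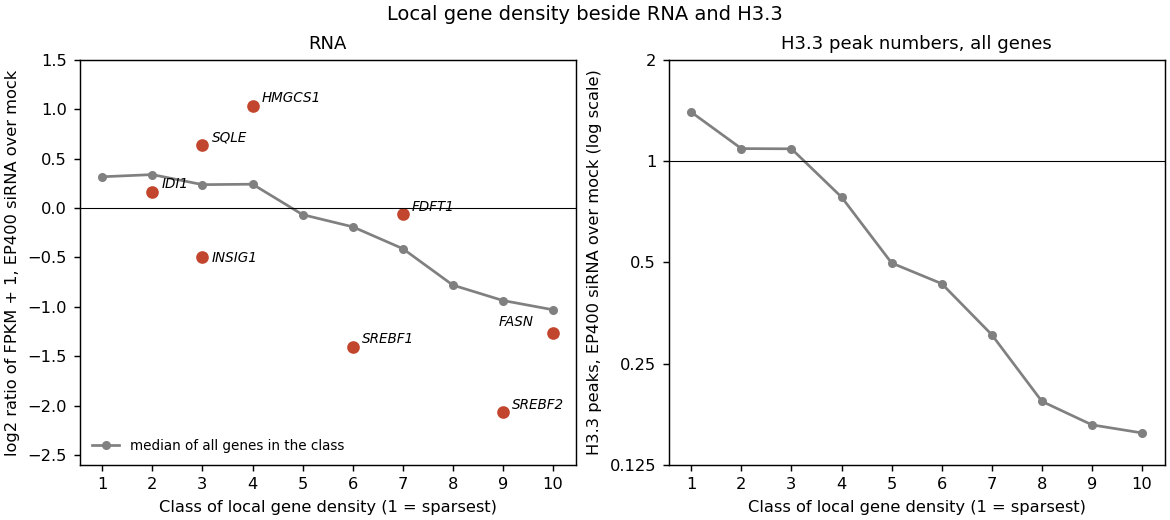
Left, log2 ratio of RNA (FPKM + 1, EP400 siRNA over mock) against the class of local gene density, with the median of all genes in grey and the 8 genes in red. Right, the number of H3.3 peaks at loci after EP400 siRNA over mock per class, on a log axis; both run down from the sparsest class (0.32 and 1.40) to the densest (-1.03 and 0.155), and HMGCS1, SQLE and FDFT1 lie above the grey line, SREBF1, SREBF2, INSIG1, IDI1 and FASN below it.

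IDI1 and INSIG1, the 2 genes without H3.3 or EP400 peaks, lay in regions with almost no peak of those lists. Within 1 Mb of the middle of each locus, IDI1 had 0 EP400, 0 mock H3.3 and 0 siRNA H3.3 peaks and INSIG1 0, 1 and 0, where the median gene had 16, 114 and 36. Only 2.04% of all genes had no EP400 peak and 1.08% no mock H3.3 peak within such a distance. Other lists were sparse there too. Around IDI1 and INSIG1 after mock siRNA there were 12 and 15 Pol II peaks (median gene 39), 1 and 5 H2AZ peaks (50), 5 and 2 MED26 peaks (38), 9 and 20 H3K18ac peaks (59), and 1 and 1 H3K4me1 peaks (51). SQLE, at the other end, had 75 EP400 peaks around it, more than 98.0% of genes, and FASN 65. Few peaks at IDI1 and INSIG1 were thus shared by the regions around them and by lists of other antibodies, and the cause was not tested. These counts were chosen after the peaks at the 8 loci were seen.

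The genes whose 13 values lay nearest to the median of the 8 genes were POLRMT, the mitochondrial RNA polymerase, at a Euclidean distance of 1.24, the transcription factor ELF4 at 1.48 and the histone chaperone subunit CHAF1A at 1.56. The values were log2(FPKM + 1) in both RNA libraries and the log2 of covered length at gene ends in the 11 peak lists. POLRMT stood at 30.2 and 17.1 FPKM, ELF4 at 22.3 and 8.34, and CHAF1A at 20.9 and 16.7. The 8 genes themselves lay from 2.66 (SREBF2) to 7.80 (FDFT1) from their own median. The 3 genes named were picked as the nearest, so their smaller distances cannot tell how alike the 8 genes are. Distances of other genes are not given.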

How the data were processed

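RNA-seq of U2OS cells after mock (GFP) or EP400 siRNA was deposited by the authors as FPKM per RefSeq transcript row with lower and upper limits, per the file headers. Bowtie 0.12.9, TopHat2 2.0.8, Cuffdiff 2.0.2 and hg19 are named in the submitters' processing notes, with the annotation release not given in the sources used here. No counts came with the FPKM values, so the depth is unknown. The authors' ChIP files are lists of peak starts and ends without height, with caller, threshold and control not given in the sources used here. Fewer or narrower peaks can come with a shallower library. After mock and EP400 siRNA the H3.3 lists held 79838 and 41439 peaks, those of H2AZ 58082 and 26526, of Pol II 30760 and 20987, and of MED26 27006 and 24366.

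Of 48669 rows, 47555 (97.7%) got a symbol by RefSeq identifier. Rows under 200 nt (2116) were left out, values and limits were summed per gene, 122 of 24198 genes were dropped for a failed estimate, and genes with a mean of 1 FPKM or more were analysed. Ratios are log2 of FPKM + 1, which makes differences of low genes look smaller. Peaks counted from an overlap of 1 bp, with 2 kb around gene ends and loci. Python 3.11.15, pandas 2.3.3 and numpy 2.4.6 were used, and the scripts were tested on simulated data. No test across genes was made, with 1 library per condition.

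The 8 genes, the gene lists and the naming rule were chosen with earlier results of these data known. The rule named the 8 genes, EP400, 7 set pathway genes, the 3 other genes of each list with the largest ratio each way, and the 3 nearest profiles with a mean of 5 FPKM or more; some of these genes are not reported here. Alternatives were other pseudocounts, filters, scalings, gene summaries, gene-end widths and overlaps. The 4 inputs were not analysed here. Promoters and microRNAs are from RefSeq (GRCh38.p14) and share no coordinates with the hg19 peaks.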

Additional observations from a re-analysis of the deposited data

How the results depend on the processing

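The log2 ratios of SREBF1, SREBF2 and FASN stayed negative, and those of HMGCS1 and SQLE positive, under every alternative run. In that order they ranged from -1.44 to -0.66, -2.12 to -1.13, -1.28 to -0.24, 0.80 to 1.84 and 0.40 to 1.41. On the centred scales a sign is relative to the median of all genes, of the density class or of the chromosome, not to mock alone. On TPM, 2 of the 8 genes were at least 2-fold higher and 1 lower, with a median of 0.42, INSIG1 at 0.13 and FDFT1 at 0.71; the lists then had 2 higher and 3 lower (cholesterol synthesis), 8 and 1 (SREBP control and uptake), 4 and 1 (fatty acid synthesis) and 0 lower (efflux and storage). On gene density centring, 0 of the 8 genes were at least 2-fold higher, IDI1 was at -0.17 and FDFT1 at 0.35, cholesterol synthesis had 0 higher and 3 lower, fatty acid synthesis 0 and 2, and efflux and storage 0 lower. Median centring put FDFT1 at 0.14 and efflux and storage at 0 lower, and the highest row per gene put FDFT1 at 0.047. A mean of 5 FPKM or more gave a median of -0.67 over the 6 genes left and 0 efflux and storage genes higher. Chromosome centring, added after seeing the data, gave 0 higher and 1 lower of the 8 genes. An overlap of 200 bp or more left 1 gene with EP400 at an end, 1 with H3.3 after EP400 siRNA and 1 overlapping H3.3 peak; peaks anywhere in the locus, also added after seeing the data, gave 5 genes with H3K4me1. No paired analysis was possible because the 3 numbered EP400 immunoprecipitations came as 1 list and the inputs were not analysed here. The causes of these shifts were not tested, beyond the fewer genes left by the filter. Shares of all genes at 2-fold or more are given on deposited FPKM only, so counts on the other scales have no such background. The unknown depth limits every peak count, and 1 library per condition limits every ratio.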

Other observations

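Genes beside or within the 8 loci gave these values. RAI1, which shares the SREBF1 locus, stood at 15.7 FPKM after mock siRNA and 5.40 FPKM after EP400 siRNA, lower as SREBF1 was. CCDC57, 3240 bp from FASN, stood at 12.3 and 6.0 FPKM, lower as FASN was, and WASHC5, 1978 bp from SQLE, at 7.89 and 12.3 FPKM, higher as SQLE was. GTPBP4, 1139 bp from IDI1, stood at 2.12 and 7.79 FPKM, a wider difference than the 1.46 and 1.76 FPKM of IDI1, and CTSB, 3216 bp from FDFT1, at 200.3 and 230.2 FPKM, where FDFT1 was 65.1 and 62.3. SHISA8, 2246 bp from SREBF2, was under 1 FPKM in both libraries.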
